A study of Danio rerio with 6 samples.

Results

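Brain-enriched microRNAs (miRNAs) were read in heart RNA of adult zebrafish with 7 array probes, dre-miR-129, dre-miR-129*, dre-miR-128, dre-miR-132, dre-miR-124, dre-miR-9 and dre-miR-219, chosen by probe name from the 218 miRNA probes of the array. The prefix dre- stands for the zebrafish, Danio rerio, and is left out from here on. The array held RNA from pooled hearts of adult Ekkwill (EK) zebrafish, the strain in both groups, kept at 26 °C under the same light cycle. The uninjured group had 3 samples (0 hours after amputation), and the regenerating group had 3 samples collected 6 hours after resection of heart tissue under MS222 anaesthesia. The fish are called adult without an age, a pool hides the spread between fish, and no group with anaesthesia or chest surgery alone was analysed here. The set was put together with the rise of miR-129 at 6 hours already known, so the change of each member between the groups is given as a description.

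A miRNA is a short RNA that guides Argonaute proteins to messenger RNAs, mostly by pairing of its bases 2 to 8, the seed. miR-124 and miR-9 mark neurons and neural progenitors: in mammals miR-124 represses the splicing regulator PTBP1, and in zebrafish miR-9 sets the midbrain-hindbrain boundary. miR-219 promotes maturation of oligodendrocytes, the myelin-forming cells of the brain. miR-128 limits neuronal excitability in mouse, and miR-132 is induced by neuronal activity through CREB and promotes growth of heart muscle cells in mouse. miR-129 is abundant in mammalian brain, and its other arm, miR-129*, acts in the assembly of cilia in zebrafish.

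The target sequences of the probes, copied from the array files, are shown because seed and overall likeness decide which other miRNAs could share a signal or a set of targets. The seed is in capitals and each sequence runs 5′ to 3′.
miR-129: cUUUUUGCggucugggcuugcu
miR-129*: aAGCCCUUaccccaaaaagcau
miR-128: uCACAGUGaaccggucucuuuu
miR-132: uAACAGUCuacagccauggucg
miR-124: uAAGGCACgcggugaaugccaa
miR-9: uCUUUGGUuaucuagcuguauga
miR-219: uGAUUGUCcaaacgcaauucuu
No 2 of the 7 shared a seed. Outside the set, miR-722 carried the seed of miR-129 and miR-212 that of miR-132. The seed of miR-128 recurred, shifted by 1 base, at bases 3 to 9 of 5 miR-27 probes, here shown by miR-27b. Capitals below mark each probe's own seed, so in miR-27b the miR-128 seed runs on to base 9 in a small letter.
miR-722: uUUUUUGCagaaacguuucagauu
miR-212: uAACAGUCuacagucauggcu
miR-27b: uUCACAGUggcuaaguucugca

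By edit distance, the number of single-base changes between targets, miR-132 and miR-212 were close, at 3. miR-461 was nearest to miR-124, at 6. The nearest probes to the remaining 5 members lay at 9 or 10: miR-19b*, miR-30e* and miR-375 for miR-129, miR-451 for miR-129*, miR-10c, miR-139 and miR-27d for miR-128, miR-142a-3p, miR-218a and miR-218b for miR-9, and miR-1, miR-153a and miR-153c for miR-219. The RefSeq annotation of assembly GRCz12tu lists several genes for each miRNA: 4 for miR-129, 3 for miR-128, 2 for miR-132, 6 for miR-124, 7 for miR-9 and 3 for miR-219. The array could not tell these copies apart, and the mature sequences of the copies were not compared with the probe targets. Of the miR-128 genes, mir128-1 lies within r3hdm1 and mir128-2 within arpp21. Both miR-132 genes have a miR-212 gene within 5000 bases.

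A probe was called above background on an array when the mean of its 12 spots, less the local background from empty spots, exceeded 3 SDs of the 1060 empty spots. This limit ran from 10.8 to 142 intensity units across the arrays, highest in regenerating replicate 2. In regenerating replicate 1, 217 of the 218 probes passed it, against 110 to 144 on the other arrays, so passing on that array alone says little. Log2 changes without that array are given for the tested members and for the list and marker probes that were past the threshold without it. The heart markers miR-1, miR-133a, miR-133b and miR-499 were all far above background, at 79.4 to 4558 times the limit over the 6 arrays. miR-208, also on that marker list, had no probe. Among 8 neuron marker probes, 7 were above background in 0 of 3 uninjured samples and 0 were bright enough to be tested. Of all 218 probes, 64 were above background in 0 of 3 uninjured samples and 138 were bright enough to be tested. In RNA from whole tissue, more cells of a type and more RNA per cell cannot be told apart.

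Of the 7 members, 4 were above background in at least 3 of the 6 samples: miR-128 and miR-132 in all 6, miR-129 in 5 and miR-129* in 4. Over the whole array, 138 of the 218 probes were above background in at least 3 samples, and 105 in all 6. The same 4 members counted without regenerating replicate 1. The other 3, miR-124, miR-9 and miR-219, passed in regenerating replicate 1 and nowhere else. Under a stricter limit of 5 SDs only miR-128 and miR-132 counted. Under a looser limit of 2 SDs, 6 of the 7 did, so the count depends on the limit. Counts over all 218 probes at these limits are not given here, so nothing about the members is read from the shift.

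**Figure D1:**
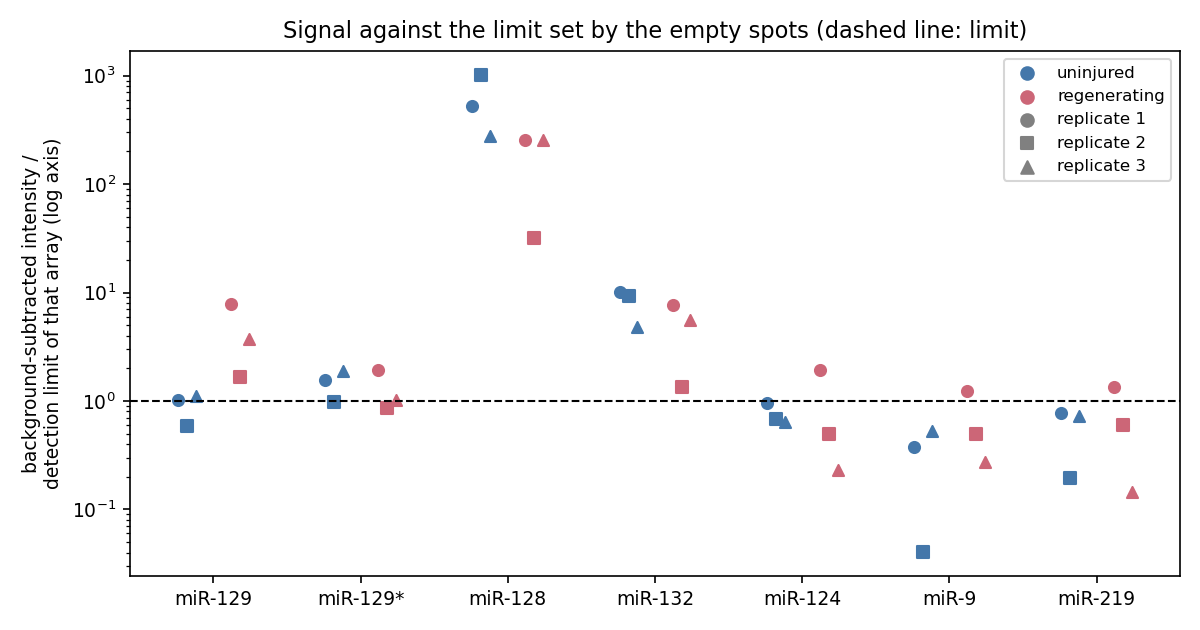
Background-subtracted intensity of each probe divided by the detection limit of its own array (log axis), with the dashed line at the limit. miR-128 lay at 31.8 to 1022 times the limit, whereas miR-124, miR-9 and miR-219 passed it only in regenerating replicate 1.

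miR-129 read higher in the regenerating hearts than in the uninjured ones. Its background-subtracted intensities, not scaled between arrays, were 17.4, 6.28 and 34.0 for the uninjured samples, in the order of replicates 1 to 3. For the regenerating samples, in the same order, they were 293, 236 and 64.6. Against each array's own limit these were 1.02, 0.584 and 1.10 times the limit without injury, and 7.88, 1.66 and 3.75 times after amputation. The uninjured values thus straddled the limit, and the regenerating values all lay above it. Under the limit of 5 SDs, miR-129 was above background in 0 of 3 uninjured and 2 of 3 regenerating samples.

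The individual spots showed the same order. On the uninjured arrays 6, 2 and 7 of the 12 miR-129 spots exceeded the limit, and on the regenerating arrays 12, 11 and 12 did. Spots were repeat readings of 1 sample and not replicates of a condition. All 12 spots had the probes of let-7f, miR-128, miR-129* and miR-144 as direct neighbours on the array. Of these, miR-144, known from red blood cells, was too dim to be tested and had group means of 6.74 and 6.72 in normalized log2 intensity without injury and after it. miR-128 was far brighter than miR-129, at 4388 to 10991 background-subtracted units. The values of let-7f are not given here. Whether neighbouring spots added to the miR-129 readings was not tested.

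After normalization, the log2 intensity of miR-129 was 6.77, 6.76 and 6.80 in the uninjured replicates and 8.10, 8.25 and 7.81 in the regenerating ones. The groups did not overlap. The means were 6.78 ± 0.023 and 8.06 ± 0.22 (SD, n = 3 each), which is 2.43-fold higher or 1.28 on the log2 scale (SE 0.14). It was past the threshold of 0.05 on p-values adjusted over the 138 tested probes in limma, where 3.62% of probes were past it in either direction and 1.45% were past it and higher. Without regenerating replicate 1 miR-129 was again past it, at 1.29, where 23.9% of all tested probes (33 of 138) were past it and 10.9% were past it and higher. Because this change was known when the set was chosen, the call describes these samples and supports nothing further.

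Between Cy3 samples the miR-129 difference was 1.39 and between the single Cy5 sample of each group 1.05 on the log2 scale. Leaving out 1 sample at a time gave log2 changes of 1.20 to 1.39. Apart from regenerating replicate 1, the call was kept without uninjured replicate 3 (1.26). It was lost without uninjured replicate 1 (1.23), uninjured replicate 2 (1.39), regenerating replicate 2 (1.20) or regenerating replicate 3 (1.39). Uninjured replicate 2 and regenerating replicate 3 are the Cy5 samples, and without either the dye term takes up the other, which leaves the Cy3 samples alone to give the change.

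The size of the rise rested on how the dim uninjured signal was handled. The correction adds an offset of 50 to each intensity, which pulls dim probes together. With an offset of 16 the log2 change was 1.71, with plain subtraction 3.01, and with no background correction 0.84. In the value table of the series, processed by the authors in a way that the labels do not describe, miR-129 stood at 25.8, 21.0 and 29.8 in the uninjured and 155, 84.3 and 112 in the regenerating replicates. There too the groups did not overlap, at means of 25.5 ± 4.38 and 117 ± 35.8 (SD, n = 3 each), a ratio of 4.60.

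**Figure D2:**
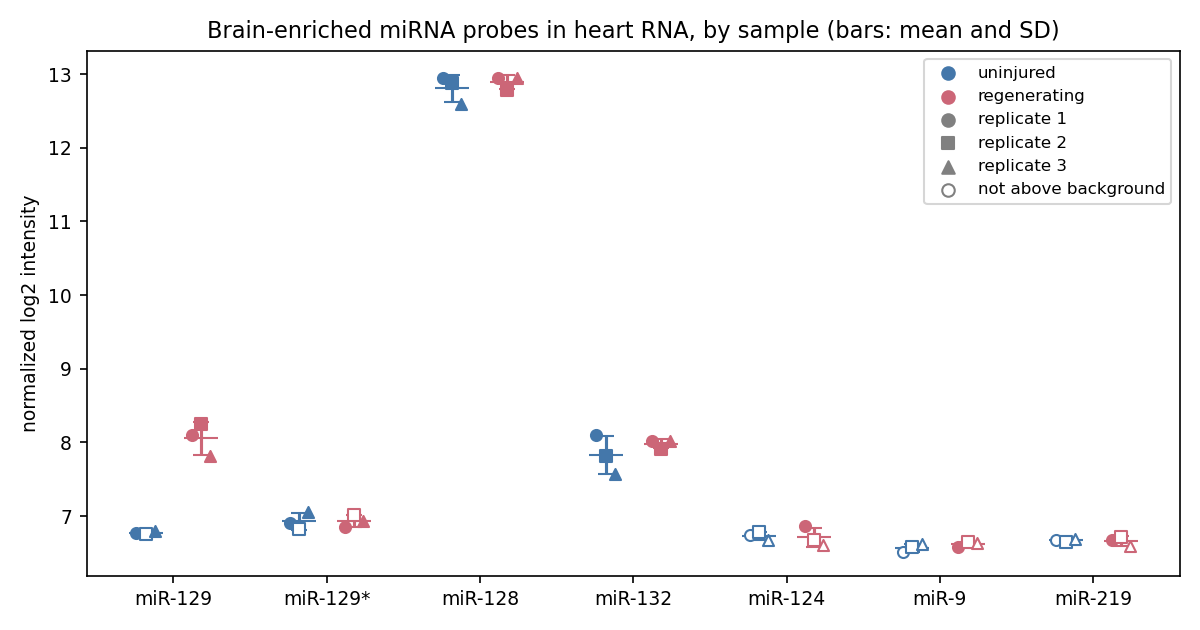
Normalized log2 intensity of the 7 probes in each of the 6 samples, with bars for group mean and SD (n = 3) and open symbols where a probe was not above background. miR-129 shows separate groups, at 6.76 to 6.80 and 7.81 to 8.25, whereas the groups of the other 6 probes overlap. Heights of different probes are not comparable as amounts.

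miR-129*, the opposite arm of the same hairpins, was dim in both groups and its groups overlapped. Its background-subtracted intensities were 26.8, 10.5 and 58.3 in the uninjured and 72.0, 121 and 17.5 in the regenerating replicates, or 0.980 to 1.89 and 0.853 to 1.93 times the limit. The normalized log2 values were 6.90, 6.82 and 7.06 against 6.85, 7.01 and 6.94, so the groups overlapped. Means were 6.93 ± 0.12 and 6.93 ± 0.080 (SD, n = 3 each), with a log2 change of 0.0076 (SE 0.13). The 95% interval of the fold was 0.803 to 1.26. The value depended on scaling: 75th percentile scaling gave 1.16 and the median of the probes detected on all arrays gave 1.39, neither past the threshold, where the median of all tested probes was 0.13 and 0.36. Without regenerating replicate 1 it was 0.069. In the authors' table its group means were 35.6 ± 6.60 and 38.0 ± 4.75 (SD, n = 3 each), a ratio of 1.07.

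Because both arms were read on each array, their ratio does not depend on any factor that scales a whole array. The ratio of miR-129 to miR-129* was 0.650, 0.596 and 0.583 on the uninjured arrays. On the regenerating arrays it was 4.08, 1.94 and 3.69. Every regenerating value lay above every uninjured one, and the geometric mean was 5.06-fold higher. The ratio shows unequal change of the probes and not the amount of either arm, and dim signals of both arms enter it. The ratio of miR-129 to miR-132 ran from 0.0634 to 0.230 without injury and from 0.676 to 1.23 after it, again without overlap. Since the rise of miR-129 was known when the set was chosen, both ratios carry that rise and support nothing further.

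**Figure D3:**
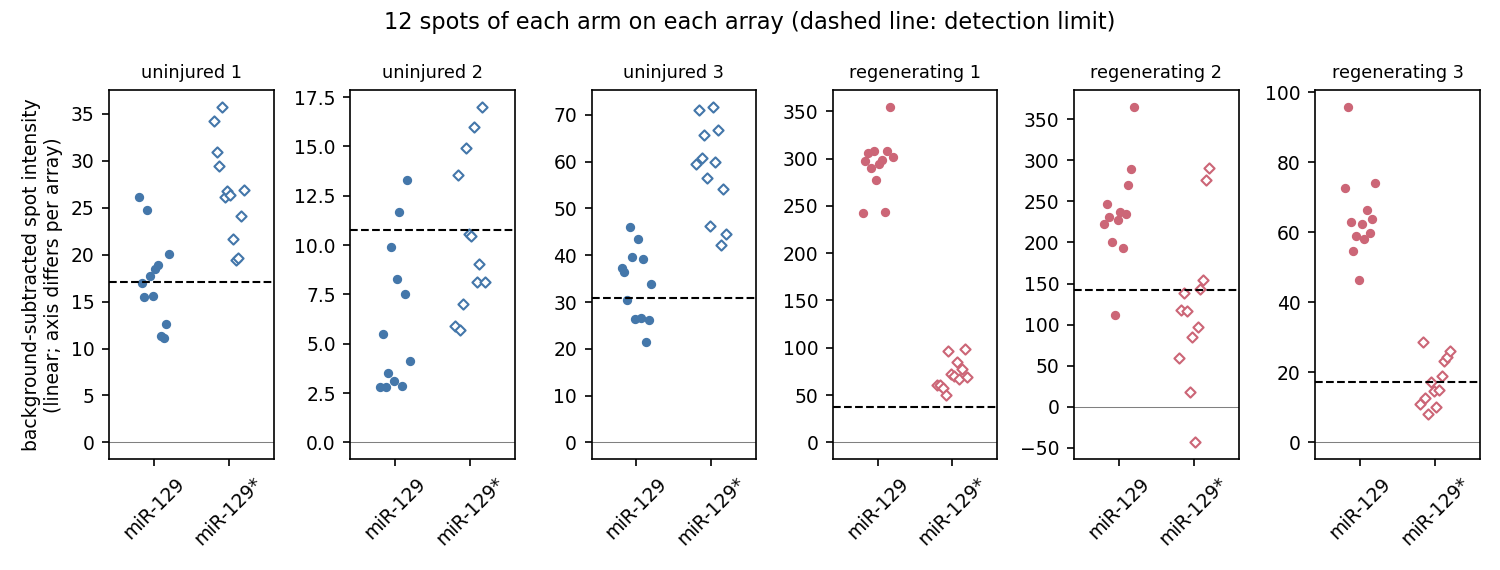
Background-subtracted intensity of the 12 spots of miR-129 (filled circles) and of miR-129* (open diamonds) on each array, with the array's detection limit as a dashed line. Axes are linear and differ between arrays. The ratio of the means is 0.583 to 0.650 on the 3 uninjured arrays and 1.94 to 4.08 on the 3 regenerating ones.

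miR-128 was bright in every heart sample. Background-subtracted intensities were 8931, 10991 and 8608 in the uninjured and 9480, 4518 and 4388 in the regenerating replicates. After normalization the log2 values were 12.95, 12.87 and 12.60 against 12.95, 12.79 and 12.95, and the groups overlapped. The means were 12.81 ± 0.18 and 12.90 ± 0.095 (SD, n = 3 each), with a log2 change of 0.088 (SE 0.15) that was not past the threshold and a 95% interval of the fold of 0.824 to 1.37. Without regenerating replicate 1 it was 0.040. The direction depended on scaling: 75th percentile scaling gave -0.28 and calibration-spot scaling gave -1.14, and the median over all tested probes was 0.13 and -0.73 in these fits. The authors' table gave 6228, 6486 and 5544 against 6201, 5532 and 5734, a ratio of 0.957.

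The miR-27 probes, which hold the miR-128 seed shifted by 1 base, were above background in all samples. Their log2 changes were -0.35 for miR-27a, -0.39 for miR-27b, -0.24 for miR-27c, -0.47 for miR-27d and -0.30 for miR-27e, and none was past the threshold.

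miR-132 was well above background except in regenerating replicate 2, where it lay at 1.35 times the limit and 8 of its 12 spots exceeded it. On the other 5 arrays it lay at 4.78 to 10.1 times the limit. Normalized log2 values were 8.10, 7.81 and 7.57 in the uninjured and 8.02, 7.92 and 8.02 in the regenerating replicates. The groups overlapped, at 7.83 ± 0.26 and 7.98 ± 0.059 (SD, n = 3 each). The log2 change was 0.15 (SE 0.17), not past the threshold, with a 95% interval of the fold of 0.825 to 1.50. It was 0.13 without regenerating replicate 1. The value depended on scaling. It was 0.88 with 75th percentile scaling and 1.11 with the median of the probes detected on all arrays, neither past the threshold. Both lie above the interval, which reaches 0.59 on the log2 scale. The median of all tested probes was 0.13 and 0.36 in these fits. Median scaling over all miRNA probes gave -0.036 for miR-132. The authors' table gave a ratio of 1.09 with overlapping groups.

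miR-212, which shares the miR-132 seed and lies beside it in the genome, was above background in regenerating replicate 1 alone, and on the other 5 arrays it lay at 0.292 to 0.979 times the limit. miR-132*, the opposite arm, was above background in 0 of 6 samples.

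At the limit of 3 SDs, the neuronal miR-124 and miR-9 and the oligodendrocyte miR-219 gave no signal above background in the uninjured heart. miR-124 lay at 0.646 to 0.968 times the limit in the 3 uninjured samples, the upper value just short of it. The corresponding ranges were 0.0407 to 0.524 for miR-9 and 0.195 to 0.774 for miR-219. In regenerating replicate 1 they stood at 1.93, 1.23 and 1.36 times the limit, and in regenerating replicates 2 and 3 between 0.146 and 0.600. Normalized log2 means without injury and after it were 6.73 and 6.71 for miR-124, 6.57 and 6.62 for miR-9, and 6.67 and 6.66 for miR-219. Under the limit of 5 SDs, miR-124 was still above background in regenerating replicate 1, and miR-9 and miR-219 were not above it anywhere. The limit comes from single empty spots and is applied to means of 12, so a reading below it does not show absence. All 12 miR-124 spots exceeded their local background on each uninjured array, whereas miR-9 and miR-219 had spots below it on at least 1. Outside regenerating replicate 1 these readings did not pass the limit, so no change is read from them.

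The seed partner miR-722 also stayed low. It lay at 0.362 to 0.755 times the limit in the uninjured samples and at 1.28, 0.269 and 0.534 times in regenerating replicates 1, 2 and 3. The target of miR-124 has the same G and C content as that of miR-129, 54.5%. Its normalized log2 values were 6.74, 6.78 and 6.67 without injury and 6.86, 6.67 and 6.61 after it. When each array was corrected for its trend with this content (GC correction), miR-129 moved from 1.28 to 0.98 and was past the threshold. The correction also moved the members too dim to be tested. Their differences of group means, regenerating minus uninjured, went from -0.019 to -0.32 for miR-124, from 0.049 to 0.42 for miR-9 and from -0.014 to 0.30 for miR-219. Whether G and C content or the seed partner had a part in the miR-129 readings was not tested.

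Scaling each array by 1 factor in place of quantile normalization moved the dim members. With 75th percentile scaling the log2 change was 2.14 for miR-129, 1.16 for miR-129* and 0.88 for miR-132, and the median of all tested probes was 0.13. Of these, miR-129 was past the threshold. The members too dim to be tested moved up as well in that setting. Their differences of group means were 1.24 for miR-124, 1.28 for miR-9 and 1.23 for miR-219. With the median of the probes detected on all arrays they were 1.47, 1.51 and 1.46, beside 2.37 for miR-129. Part of the larger miR-129 values under such scaling is thus a shift that these dim probes share. With scaling to calibration spots miR-129 stood at 1.28 and was not past the threshold, where 15.9% of all tested probes were.

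**Figure D4:**
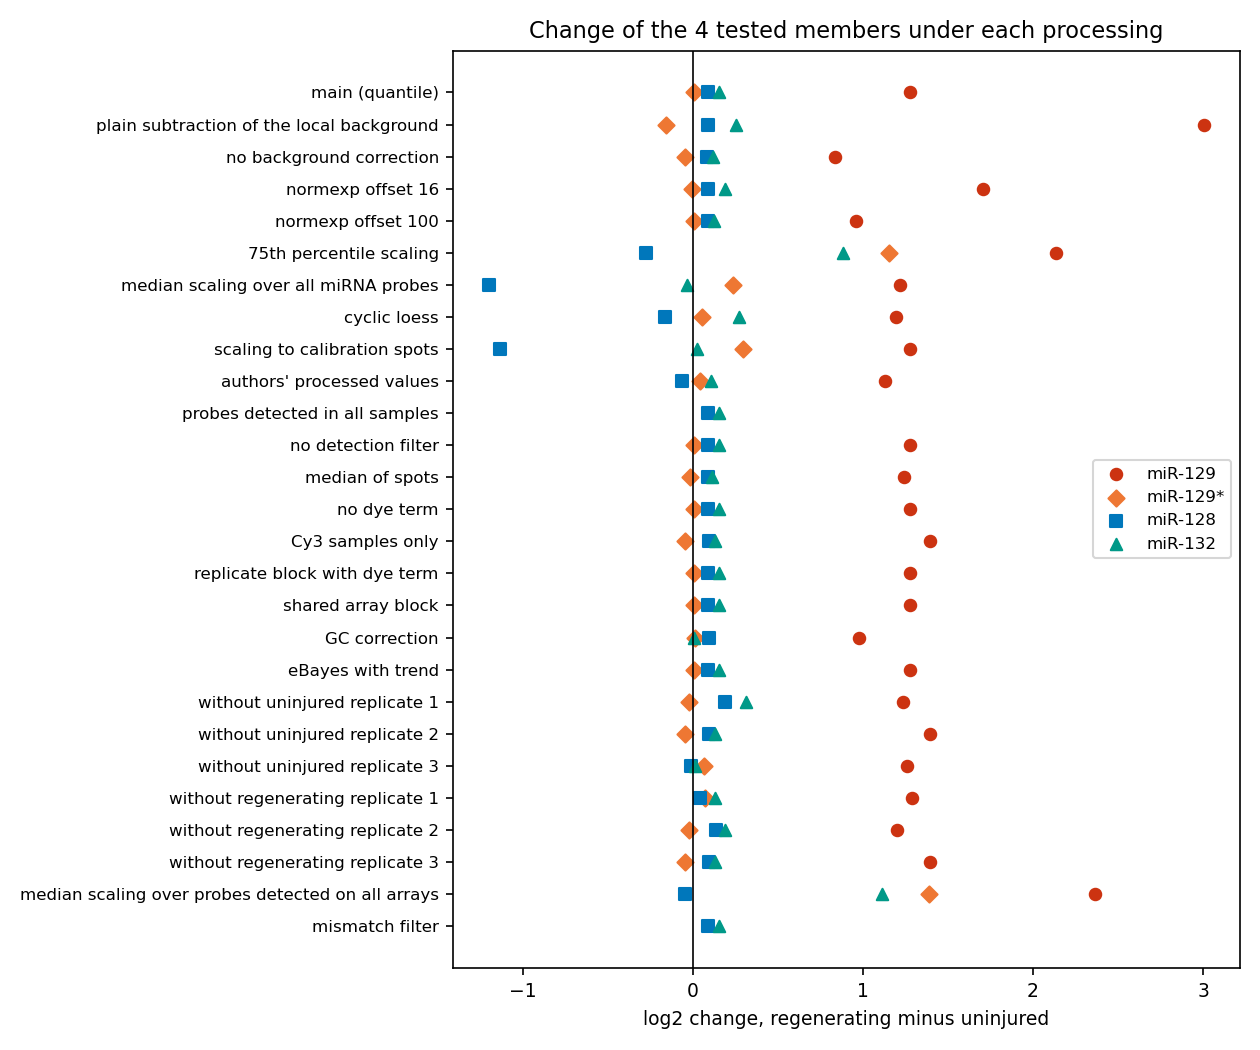
Log2 change (regenerating minus uninjured) of the 4 tested members under each processing, 1 row per setting, with a member left out of a row whose filter removed it. miR-129 stays between 0.84 and 3.01, and the other 3 lie between -0.17 and 0.31 outside the 4 rows that scale each array by a single factor.

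Over the 4 tested members, 1 was past the threshold and 3 were not, with a median log2 change of 0.12 against -0.052 over all 138 tested probes. The groups did not overlap for miR-129 and overlapped for the other 3 tested members. Among all tested probes 23.9% had groups without overlap, and 9.42% had all regenerating samples higher. These shares are given for reference, and nothing about the set is read from them.

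A further list of 22 neural miRNA names matched 18 probes. Of these, 13 were too dim to be tested, 12 of them above background in 0 of 3 uninjured samples. They included miR-9*, miR-137, miR-153a, miR-153b, miR-153c, miR-7a, miR-7b and miR-138, which in zebrafish patterns the chambers of the embryonic heart. Of all 218 probes, 138 were tested and 64 were above background in 0 of 3 uninjured samples. The 5 tested probes belong to miRNAs also made outside the nervous system, as is the dim miR-138. Whether this bears on their brightness was not tested. Of the 5, 0 were past the threshold. Their log2 changes were -0.011 for miR-125b, 0.40 for miR-181a, 0.65 for miR-181b, -0.55 for miR-218a and -0.70 for miR-218b. Their median was -0.011, against -0.052 over all tested probes. Without regenerating replicate 1, 4 of the 5 were past the threshold, with miR-181a at 0.60 and miR-181b at 0.94 higher and miR-218a at -1.05 and miR-218b at -1.08 lower. In that fit 23.9% of all tested probes were past it.

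The probes whose profile over the 6 samples was most like that of miR-129, among 134 tested probes outside the set, were miR-738 (Pearson r = 0.987), miR-25 (0.935), miR-735 (0.925), miR-133a (0.921) and miR-222 (0.915). These values describe 6 samples in 2 groups and mostly restate the difference between the groups. miR-738, described in zebrafish, had a log2 change of 2.81 (SE 0.22). The skeletal muscle marker miR-206 had a log2 change of 2.47 (SE 0.63) and was not past the threshold, with 2702, 458 and 146 background-subtracted units in regenerating replicates 1, 2 and 3 against 27.6 to 38.5 without injury. For other marker lists, log2 changes were 0.067 for miR-451 of red blood cells, 0.10 for miR-126 of endothelium, 1.16 for miR-223 and -0.038 for miR-150 of leukocytes, 0.48 for miR-122 of liver, and -0.42, -0.81 and -0.68 for miR-200a, miR-200b and miR-200c of epithelium. Both miR-142a probes and miR-203a were too dim to be tested. Of these marker probes miR-200b was past the threshold. Without regenerating replicate 1, miR-206 (1.72), miR-223 (1.37), miR-200b (-0.75) and miR-200c (-0.82) were past it, and miR-122 stood at -0.069. In that fit 23.9% of all tested probes (33 of 138) were past it, against 3.62% with all 6 samples. The part of these marker probes in the miR-129 result was not tested.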

How the data were processed

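Small RNA below 300 nucleotides was poly(A)-tailed, tagged and stained with Cy3 or Cy5 by a service provider, per the labels' protocols. Each group had 2 Cy3 samples and 1 Cy5 sample. The deposited intensity per spot is the mean on a linear scale with its spread, per the file headers, without background subtraction. Within each sample, the authors' processed intensities correlated with the background-subtracted values at r of 0.989 to 0.999 across tested probes (log2 scale). Their column medians over miRNA probes were 68.9 to 91.9.

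Background was the median of the 16 nearest empty spots. Normexp correction with an offset of 50 was done in limma 3.58.1 under R 4.3.3. Values were put on the log2 scale, averaged over 12 spots and quantile normalized over 218 probes. The 138 probes above background in at least 3 samples were fitted with a dye term (lmFit, eBayes) and adjusted by Benjamini-Hochberg. The procedure was tested on simulated spots, with changes placed only in probes above background on every array. miR-129 was not such a probe, so the simulation does not cover its call. The number of arrays limits the precision. The series design calls the replicates biological.

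Members, lists and alternatives were chosen with earlier results of these data known. Alternatives covered background correction, offset, normalization, filter, spot summary, dye, blocks, GC correction, the authors' values and each sample left out. Named probes were the members, 2 neural and sensory lists, markers, nearest and seed-sharing probes, and the 5 most like miR-129. Nothing in the labels says that same-numbered samples are pairs, so replicate numbers were not taken as pairs. Deviations of same-numbered samples correlated at r of 0.14, -0.45 and 0.37, which does not settle whether they pair.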

Additional observations from a re-analysis of the deposited data

How the results depend on the processing

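miR-129 stayed above 0 in all 24 alternative fits that tested it and was past the threshold in 17, at log2 changes of 0.84 to 3.01. These 24 are not separate checks. The rise was known when the set was chosen, so these counts describe the processing and support nothing further. The fits with Cy3 samples only, without uninjured replicate 2 and without regenerating replicate 3 gave the same miR-129 result. Several others used the same normalized values. The call was lost at 1.28 with scaling to calibration spots, at 1.39 with the Cy3 samples only (4 samples), and at 1.28 with the replicate number as a block (replicate block). Leaving out 1 sample gave 1.20 to 1.39. In these settings the number of members past the threshold was 0 in place of 1, and leaving out 1 sample gave 0 or 1. It was also 0 with the filters for detection in all samples and above mismatched calibration spots, which removed miR-129. Counts over all probes moved too: of the 138 tested, 5 were called in the reported fit, 0 with Cy3 samples only or without uninjured replicate 2 or regenerating replicate 3 (18 of the 138 below an unadjusted p of 0.05 in limma, against 28), and 1 with the replicate block or without uninjured replicate 1 or regenerating replicate 2. Calibration spots gave 22, median scaling 29 and leaving out regenerating replicate 1 gave 33. The mismatch limit ran from 49.9 to 5810 units. With calibration spots the log2 change of miR-129 was 1.28, as in the reported fit, and its SE was 0.51 against 0.14. The other 3 tested members also had an SE of 0.51 in that setting. Why the SE was larger there was not tested. Uninjured replicate 2 and regenerating replicate 1, of opposite dye, may lie on a common array, since their empty spots varied together (Spearman rho = 0.46). With that pair as a block miR-129 kept its call at 1.28. No other member was past the threshold in any fit. miR-129* turned to -0.16 with plain subtraction, -0.046 without background correction, -0.0066 with an offset of 16, -0.015 with the median of spots and -0.046 with Cy3 samples only, and ran from -0.046 to 0.069 with 1 sample left out. miR-128 turned to -0.28 with 75th percentile scaling, -1.20 with median scaling, -0.17 with cyclic loess, -1.14 with calibration spots, -0.062 with the authors' values and -0.048 with the median of probes detected everywhere, and ran from -0.014 to 0.19 with 1 sample left out. miR-132 turned to -0.036 with median scaling. The 4 members above background (of all 218 probes, 138) became 2 with mismatched spots (107) and with all 6 samples required (105). The count was 2 with 5 SDs and whole-array background, 6 with 2 SDs and 7 when 1 sample sufficed (all-probe counts not given). The mismatch filter and the median of probes detected everywhere were added after the data were examined. The causes of these turns were not tested. Signal near background limits every uninjured value of miR-129 and every value of miR-129*.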

Other observations

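Of 6 probes of sensory and neuroendocrine miRNAs, 1 was bright enough to be tested, against 138 of all 218 probes. This was miR-184, at 6.90 ± 0.040 in the uninjured and 7.20 ± 0.62 in the regenerating samples (SD, n = 3 each), a log2 change of 0.29 that was not past the threshold. It was above background in 3 of 3 uninjured samples and 1 of 3 regenerating ones, regenerating replicate 1. Without that sample its log2 change was -0.078, also not past the threshold. miR-96, miR-182, miR-183, miR-204 and miR-375, known from sensory hair cells, the eye or endocrine cells, were above background in at most 2 of the 6 samples.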
